A study of Oryza sativa with 6 samples.

Results

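The 7 genes described here are 6 enzymes of jasmonate synthesis, LOX9, AOS1, AOS2, AOC, OPR7 and JAR1, and the transcription factor MYC2, in leaves of rice seedlings that overexpress DGP1 and of their wild type. They were taken by locus ID, and all 7 IDs were among the 19696 rows of the deposited table, with 0 absent. The tested material was DGP1-OE1, an overexpressor of DGP1, and it was set against ZH11, a japonica rice variety and its wild type, with 3 libraries of each. All seedlings were 3 weeks old and were grown on MS medium, a defined plant culture medium, at 1/2 strength. Each title has the further word Ck, left unexplained by the labels. The promoter that drives DGP1 is not given in the sources used here, and DGP1-OE1 is 1 line, so the line and the transgene cannot be told apart. The question put to these libraries was how DGP1, known from earlier work as a repressor of chlorophyll synthesis in rice glumes, bears on metabolism. The level of DGP1 itself was not checked, because its ID is not known here.

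Jasmonates are fatty acid-derived plant hormones that leaves make after wounding, insect feeding and infection. Lipoxygenase adds oxygen to linolenic acid in the plastid, allene oxide synthase and allene oxide cyclase turn the product into OPDA, and OPDA reductase and beta-oxidation in the peroxisome turn OPDA into jasmonic acid. JAR1 joins jasmonic acid to isoleucine. That conjugate lets the receptor COI1 bind the JAZ repressors, whose breakdown frees MYC2, the bHLH factor that switches on jasmonate-responsive genes. The names were paired with the IDs from general knowledge, since the table holds IDs only and the RefSeq table of rice genes (assembly ASM3414082v1) matched 0 of them. By the digits of their IDs, AOS1, AOS2 and AOC lie on chromosome 3, LOX9 and OPR7 on chromosome 8, JAR1 on chromosome 5 and MYC2 on chromosome 10.

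The data were FPKM values, fragments scaled to transcript length and library size, and no counts were given, which leaves depth unknown and limits precision most at low levels. Library totals ran from 686327 to 752617 FPKM. Between 56 and 637 rows per library were listed at 0, the largest number in DGP1-OE1 replicate 3, which also had the lowest median FPKM (6.69). Leaf identity was checked with 5 loci taken from general knowledge as genes of Rubisco, its activase and the light-harvesting antenna. By their mean over the 6 libraries all 5 stood at or above the 99.8th percentile of levels in the table, although the lowest value of any of them in a single library was 5.75 FPKM, for the antenna locus in DGP1-OE1 replicate 2. They had summed levels of 37456 to 67371 FPKM in DGP1-OE1 and 39651 to 47073 FPKM in ZH11. Of 3 seed storage loci used as a contrast, 1 was in the table, at 0.592 to 2.06 FPKM in DGP1-OE1 and 0.528 to 2.68 FPKM in ZH11. Nothing in the labels tells if the replicates came from different plants, and the p-values thus reflect only library-to-library spread, possibly technical in part. In whole leaves, fewer cells that express a gene and less RNA per cell cannot be told apart.

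The 6 enzyme genes fell into a low and a high set, and for these 6 loci the division followed their place in the pathway. The members that act first, LOX9, AOS1 and AOS2, reached at most 1.67 FPKM in any library. The members that act later, AOC, OPR7 and JAR1, had at least 14.1 FPKM in every library. Other synthesis loci, described below, reached group means of 253 FPKM in DGP1-OE1 and 201 FPKM in ZH11. Their steps were not separated, so the levels of these members are not those of whole steps. MYC2 lay between the low and the high set in all 6 libraries. FPKM is scaled to length, so levels were set side by side between genes. The annotation and the treatment of reads shared by similar genes are not given, which limits such comparisons. AOC was the highest of the 7 in all 6 libraries, at 1.64 to 3.30 times the FPKM of JAR1 in the same library. JAR1 and OPR7 were neighbours in level: JAR1 was above OPR7 in all 3 DGP1-OE1 libraries and in 2 of 3 ZH11 libraries, and their group ranges overlapped in DGP1-OE1 and in ZH11. MYC2 was below JAR1 and OPR7 in every library, and LOX9, AOS1 and AOS2 changed places from library to library. Among all 19696 rows the mean levels of AOC, JAR1 and OPR7 stood at the 90.0th, 76.5th and 72.3rd percentiles, that of MYC2 at the 49.1st, and those of AOS1, LOX9 and AOS2 at the 5.64th, 5.38th and 1.59th.

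**Figure D1:**
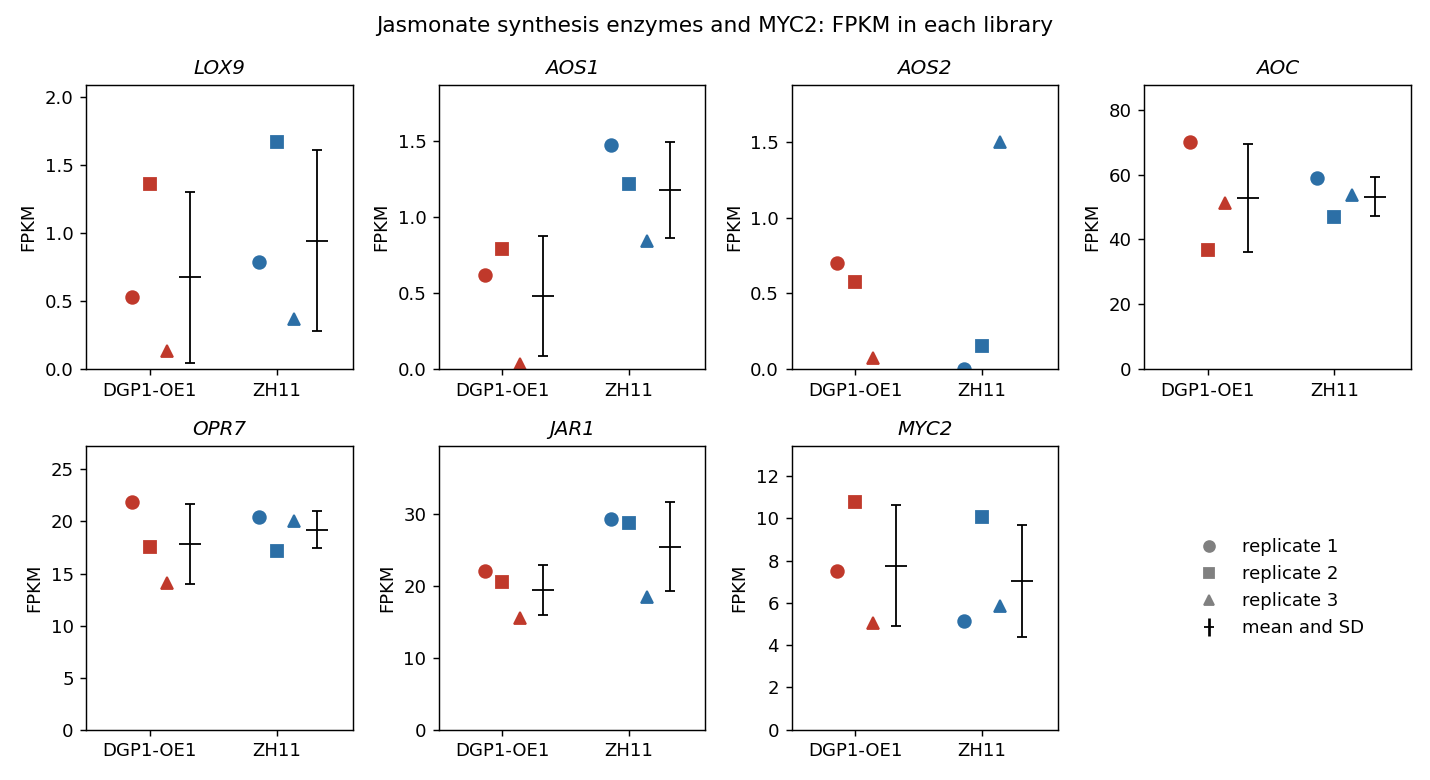
FPKM (vertical axes, linear and starting at 0, a scale for each gene) of the 7 genes in each DGP1-OE1 library (red, left) and ZH11 library (blue, right), with marker shape for the replicate number and black bars for mean and SD (n = 3), left out for AOS2, which is listed at 0 in 1 library. LOX9, AOS1 and AOS2 reach at most 1.67 FPKM, AOC, OPR7 and JAR1 have at least 14.1 FPKM, and for every gene but AOS1 the libraries of DGP1-OE1 and ZH11 overlap.

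None of the 7 genes was called different between DGP1-OE1 and ZH11. A gene was tested when it reached 1 FPKM in at least 3 of the 6 libraries, which AOC, OPR7, JAR1 and MYC2 did and LOX9, AOS1 and AOS2 did not. In the limma fit over all 18270 tested genes (two-sided, Benjamini-Hochberg adjustment, threshold 0.05), 0 of the 4 tested members passed, and 0 of 4 had an unadjusted p under 0.05. Over all tested genes 0.356% passed, 29 higher and 36 lower in DGP1-OE1, or 32 and 24 with median-of-ratios scaling. An unadjusted p under 0.05 was reached by 8.8%. With so small a background, 0 of 4 is no result about these genes. Given their standard errors, the log2 differences needed to reach the smallest moderated t statistic among the called genes were 1.32 for OPR7, 1.37 for AOC, 1.41 for JAR1 and 1.93 for MYC2. Smaller estimates at these standard errors would fall short of every called gene. These are cuts on the estimates and do not give the size of true change that could be detected.

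LOX9 (Os08g0509100), the lipoxygenase of the set, had 0.531, 1.36 and 0.130 FPKM in DGP1-OE1 replicates 1, 2 and 3, against 0.787, 1.67 and 0.369 FPKM in ZH11 replicates 1, 2 and 3. Replicate 2 was the highest library in each genotype and replicate 3 the lowest, and the groups overlapped. The mean was 0.674 ± 0.628 FPKM in DGP1-OE1 and 0.942 ± 0.665 FPKM in ZH11 (SD, n = 3 each), a difference smaller than either SD.

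AOS1 (Os03g0767000), an allene oxide synthase, had 0.616, 0.789 and 0.0336 FPKM in DGP1-OE1, against 1.47, 1.22 and 0.842 FPKM in ZH11. It was the only member whose groups did not overlap, with every DGP1-OE1 library below every ZH11 library, though the highest DGP1-OE1 value (0.789) and the lowest ZH11 value (0.842) lay close together. Lack of overlap in this direction was seen for 7.19% of the tested genes, among which AOS1 is not counted because it was below the filter. The mean was 0.480 ± 0.396 FPKM in DGP1-OE1 and 1.18 ± 0.318 FPKM in ZH11 (SD, n = 3 each), a mean log2(FPKM + 1) difference of -0.59. Without a filter on low values, where it was tested, AOS1 did not pass (limma, adjusted p = 0.697), and its 95% interval ran from -1.34 to 0.17. The size also rested on DGP1-OE1 replicate 3, the library with most rows at 0, without which the difference was -0.35.

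AOS2 (Os03g0225900), the other allene oxide synthase, had 0.702, 0.573 and 0.0711 FPKM in DGP1-OE1. In ZH11 it was listed at 0 in replicate 1 and had 0.152 and 1.50 FPKM in replicates 2 and 3. The ZH11 values enclosed those of DGP1-OE1, and the highest and lowest of all 6 libraries were both ZH11 libraries. Without a filter AOS2 and LOX9 did not pass either (limma, adjusted p = 0.998 and 0.931). Summed over LOX9, AOS1 and AOS2, the level was 1.85, 2.72 and 0.235 FPKM in DGP1-OE1 replicates 1, 2 and 3, against 2.26, 3.04 and 2.72 FPKM in ZH11 replicates 1, 2 and 3. The sum was lowest in DGP1-OE1 replicate 3, DGP1-OE1 replicate 1 was also below every ZH11 library, and DGP1-OE1 replicate 2 lay among them. Whether the many rows listed at 0 in DGP1-OE1 replicate 3 have a part in its low sum was not tested.

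AOC (Os03g0438100), allene oxide cyclase, which sets the stereochemistry of OPDA, had 70.2, 36.9 and 51.2 FPKM in DGP1-OE1, against 59.1, 47.0 and 53.7 FPKM in ZH11. The DGP1-OE1 libraries held both the highest and the lowest value, and the ZH11 libraries lay inside that range. The mean was 52.8 ± 16.7 FPKM in DGP1-OE1 and 53.2 ± 6.05 FPKM in ZH11 (SD, n = 3 each). Its log2 difference was -0.05 with a standard error of 0.246 and a 95% interval from -0.60 to 0.49 (limma, adjusted p = 0.975).

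OPR7 (Os08g0459600), the OPDA reductase, had 21.8, 17.6 and 14.1 FPKM in DGP1-OE1, against 20.4, 17.2 and 20.0 FPKM in ZH11. As for AOC, the DGP1-OE1 libraries spread more widely and enclosed those of ZH11. It was the steadiest member, its 6 libraries spanning a ratio of 1.55, and its coefficient of variation over the 6 libraries (15.1%) stood at the 10.6th percentile of tested genes. The mean was 17.8 ± 3.88 FPKM in DGP1-OE1 and 19.2 ± 1.77 FPKM in ZH11 (SD, n = 3 each), a log2 difference of -0.12 with a 95% interval from -0.64 to 0.40 (limma, adjusted p = 0.940).

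JAR1 (Os05g0586200), the enzyme that makes jasmonoyl-isoleucine, the active hormone, had 22.1, 20.6 and 15.5 FPKM in DGP1-OE1, against 29.3, 28.7 and 18.4 FPKM in ZH11. ZH11 replicates 1 and 2 stood above all other libraries, while ZH11 replicate 3 lay among those of DGP1-OE1. The mean was 19.4 ± 3.45 FPKM in DGP1-OE1 and 25.5 ± 6.14 FPKM in ZH11 (SD, n = 3 each), or 0.762 times as high in DGP1-OE1. This was the largest difference among the tested members, -0.36 on the log2 scale with a standard error of 0.254. It did not pass the test (limma, adjusted p = 0.758; unadjusted p = 0.183), and its 95% interval ran from -0.92 to 0.20. In size it stood at the 65.1st percentile of all tested genes. It was -0.57 without ZH11 replicate 3 (limma, adjusted p = 0.655; unadjusted p = 0.0493) and -0.22 without DGP1-OE1 replicate 3 (limma, adjusted p = 0.898).

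MYC2 (Os10g0575000) had 7.49, 10.8 and 5.03 FPKM in DGP1-OE1, against 5.14, 10.1 and 5.87 FPKM in ZH11. Replicate 2 was the highest library in DGP1-OE1 and in ZH11, and the groups overlapped almost wholly. The mean was 7.75 ± 2.87 FPKM in DGP1-OE1 and 7.03 ± 2.67 FPKM in ZH11 (SD, n = 3 each). MYC2 was the only member with the higher mean in DGP1-OE1, but its log2 difference of 0.12 did not pass the test (limma, adjusted p = 0.958), and the 95% interval ran from -0.64 to 0.89. It was also the most variable of the tested members, with a coefficient of variation of 34.0% over the 6 libraries.

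**Figure D2:**
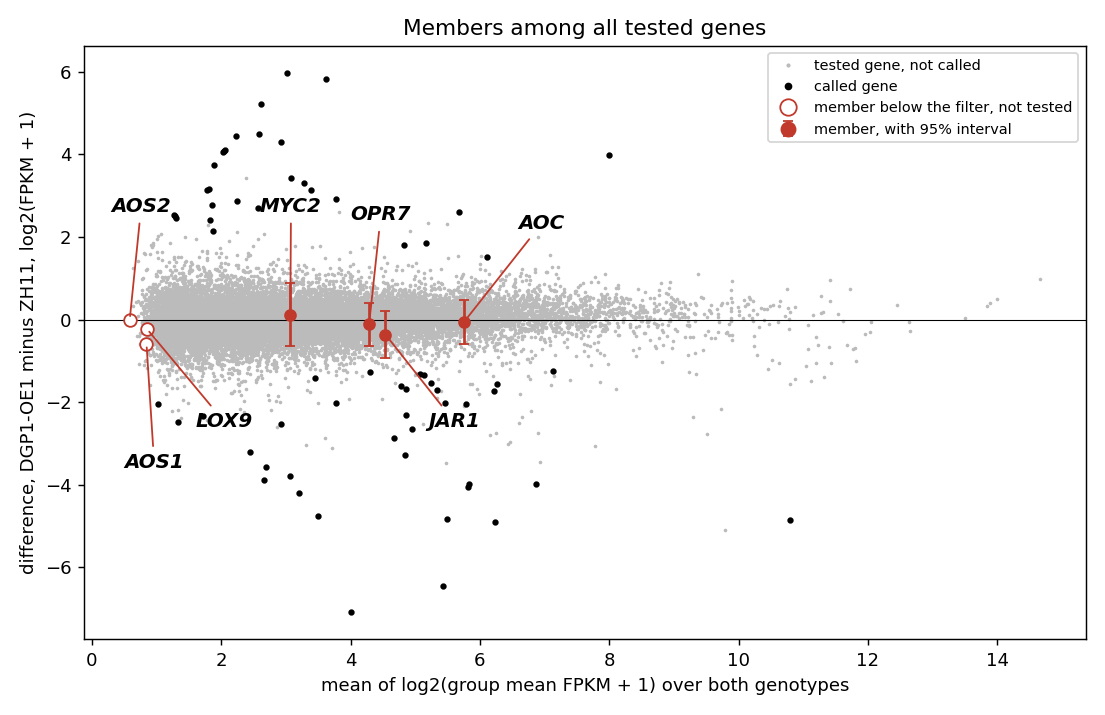
Difference between DGP1-OE1 and ZH11 on the log2(FPKM + 1) scale (vertical) against the mean level of both genotypes on the same scale (horizontal) for the 18270 tested genes, with called genes in black, the 4 tested members in filled red with 95% intervals, and the 3 members below the filter as open circles. The intervals of AOC, OPR7, JAR1 and MYC2 all include 0, and the called genes lie farther from 0 than these members.

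Sums and ratios of AOC, OPR7 and JAR1 were compared by library, without a test. The summed level of AOC, OPR7 and JAR1 was 114, 75.0 and 80.9 FPKM in DGP1-OE1 replicates 1, 2 and 3, against 109, 92.9 and 92.1 FPKM in ZH11 replicates 1, 2 and 3, and the groups overlapped. The level of JAR1 relative to OPR7 in the same library was 1.01, 1.17 and 1.10 in DGP1-OE1 and 1.44, 1.67 and 0.919 in ZH11, so it also overlapped. That of AOC relative to OPR7 was 3.21, 2.10 and 3.64 in DGP1-OE1 and 2.89, 2.74 and 2.68 in ZH11. The ZH11 ratios lay close together and within the range of DGP1-OE1.

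DGP1-OE1 replicate 3 was the lowest library for 5 of the 7 members, LOX9, AOS1, OPR7, JAR1 and MYC2. The same library was the lowest for 27.9% of all tested genes, the largest share of any library. LOX9 and AOS1 were below the filter, so that share does not cover genes as low as these. AOC, at 51.2 FPKM there, was close to its mean over the libraries of DGP1-OE1.

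Over the 6 libraries, 21 pairs of members were compared by correlation of log2(FPKM + 1). Pearson's r was positive for 15 of the 21, and no pair passed adjustment over the 21. The pairs share genes and libraries, and the share of positive r among pairs of other genes was not computed. The highest Pearson's r was 0.883, between AOS1 and JAR1 (exact permutation test, two-sided p = 0.0181, adjusted p = 0.38). Its Spearman's rho was 0.771 (exact permutation p = 0.103, adjusted p = 0.714). Without the libraries farthest from the median of AOS1, DGP1-OE1 replicate 3 and ZH11 replicate 1, r was 0.678. LOX9 and MYC2, which both peaked in replicate 2 of each genotype, followed with r = 0.835 (exact permutation p = 0.0514, adjusted p = 0.54) and rho = 0.771 (exact permutation p = 0.103, adjusted p = 0.714). Without DGP1-OE1 replicate 3 and ZH11 replicate 2 that r was 0.69. The lowest r was -0.57, between AOC and MYC2 (exact permutation p = 0.243, adjusted p = 0.753), with a rho of -0.486 (exact permutation p = 0.356, adjusted p = 0.921) and an r of -0.776 without DGP1-OE1 replicates 1 and 2. The permutations shuffled all 6 libraries whatever their genotype, so these p-values do not separate joint variation from a difference between the genotypes. With the mean of each genotype taken out, r was 0.829 for AOS1 and JAR1, 0.919 for LOX9 and MYC2, and -0.564 for AOC and MYC2. LOX9 and AOS1 lie at levels where FPKM is least precise.

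**Figure D3:**
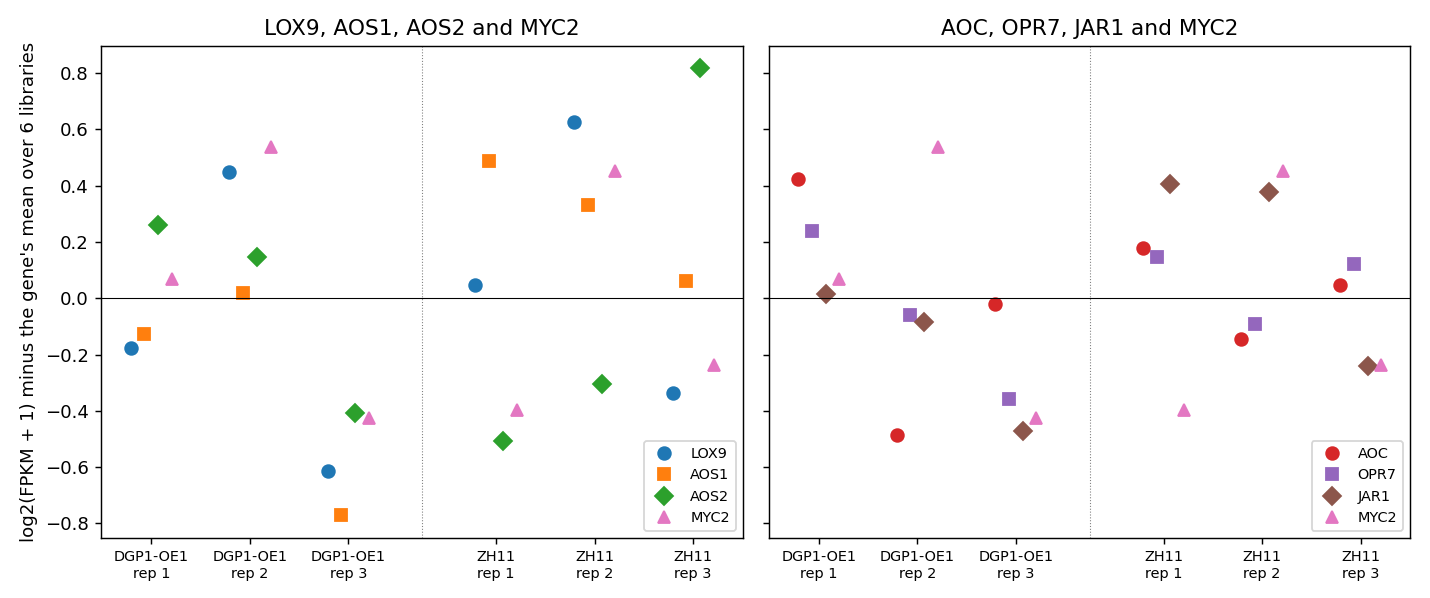
Level of each gene in each library as log2(FPKM + 1) minus the gene's own mean over 6 libraries (vertical), with the DGP1-OE1 libraries on the left and the ZH11 libraries on the right of each panel; MYC2 is drawn in both panels. MYC2 and LOX9 are highest in replicate 2 of each genotype, and LOX9, AOS1, OPR7, JAR1 and MYC2 have their lowest point in DGP1-OE1 replicate 3.

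The mean profile of the 4 tested members, each scaled to its own mean and SD, was most like those of Os02g0181800 and Os07g0662600 among the 18266 other tested genes (Pearson's r = 0.9951 and 0.9950 over 6 libraries, a description of a search with no test). Os02g0181800 had 66.5, 56.7 and 49.6 FPKM in DGP1-OE1 and 63.9, 61.4 and 57.9 FPKM in ZH11. Both loci are not annotated in the sources used here. An r above 0.9 was reached by 100 genes, or 0.547%. The 4 members did not share 1 profile, so their mean need not describe any of them. Between pairs of the 4, Pearson's r ran from -0.57 (AOC and MYC2) to 0.551 (AOC and OPR7).

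Other jasmonate genes were examined through a list of 31 locus IDs, put together from general knowledge and not checked against an annotation, so that it is described by counts alone. Of these, 20 were in the table and tested, and none passed in either direction (limma, 0 higher and 0 lower; 1 with an unadjusted p under 0.05; lowest adjusted p = 0.284). Beside the 0.356% called and the 8.8% with an unadjusted p under 0.05 over all tested genes, these counts say nothing particular about the 20 loci. The median log2 difference was -0.08, beside -0.0096 over all tested genes, with 8 positive and 12 negative differences, where 51.1% of all tested genes had a negative one.

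By role, the 8 tested loci for other lipoxygenases, OPDA reductase relatives, beta-oxidation and hormone conjugation had 1 positive and 7 negative differences. Over all tested genes 51.1% were negative. The median of the 8 was -0.22, with a range from -1.62 to 0.33. The groups of 2 of these 8 did not overlap, both lower in DGP1-OE1, where 7.19% of tested genes showed this. The most abundant of the 8 averaged 253 FPKM in DGP1-OE1, and the most abundant averaged 201 FPKM in ZH11. The 3 loci for COI1-type receptors, which sense the hormone, had differences from -0.30 to -0.12 and group means of 13.4 to 23.5 FPKM in DGP1-OE1 and 16.0 to 29.5 FPKM in ZH11.

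Of 15 loci for JAZ repressors, which bind MYC2 and are themselves jasmonate-induced, 9 were tested. Their differences ran from -0.44 to 0.53 with a median of 0.06, 7 positive and 2 negative, beside 51.1% negative over all tested genes. The 2 remaining loci, for a jasmonate-responsive bHLH factor and a jasmonate hydroxylase, were not analysed here.

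**Figure D4:**
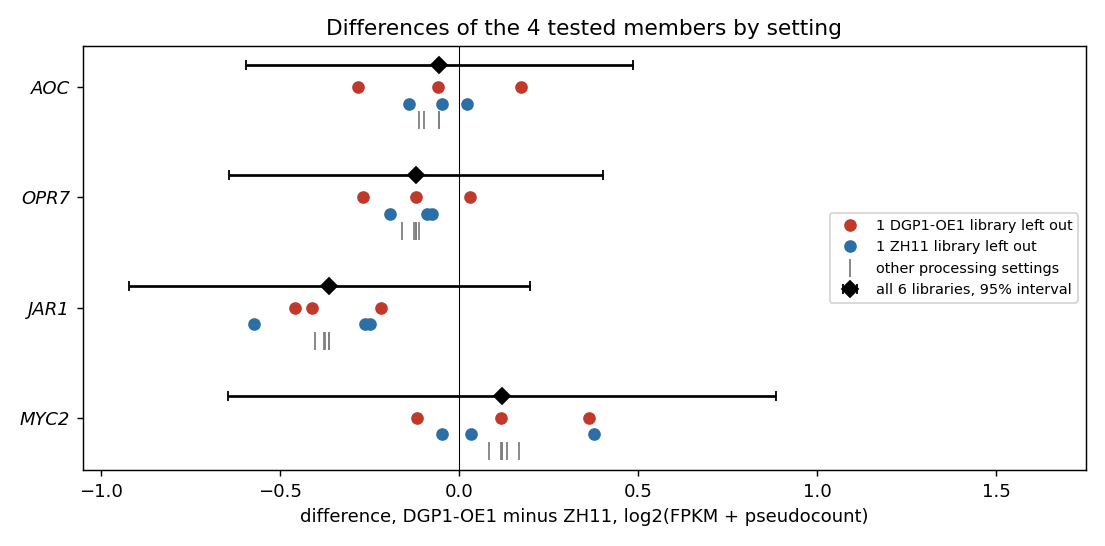
Log2 differences between DGP1-OE1 and ZH11 (horizontal) of the 4 tested members with all 6 libraries and their 95% intervals (black), with 1 DGP1-OE1 library left out (red), with 1 ZH11 library left out (blue) and under 9 other processing settings (grey). JAR1 stays below 0 throughout, from -0.57 to -0.22, while AOC, OPR7 and MYC2 cross 0 when single libraries are left out.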

How the data were processed

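Per the labels, RNA was extracted from leaves and libraries were made by Illumina protocols. The authors deposited FPKM per row. HISAT2 2.0, StringTie 1.3.0 and Bowtie 0.12.2 are listed, without their roles, in the submitters' processing notes, beside the mouse build mm8. Not given in the sources used here are the rice build, the annotation, strandedness and how reads shared by similar genes were treated. Overexpressor columns, named DGP1-OE with a number, were matched to DGP1-OE1 by that number. Rows with at least 1 FPKM in at least 3 of the 6 libraries were tested on log2(FPKM + 1), which understates differences of low genes, with limma 3.58.1 (R 4.3.3), moderated with an intensity trend. Every adjusted p of a gene is from limma, by the Benjamini-Hochberg method. The fit was also run on simulated normal values, with changes put only into genes of higher level. That run does not cover low genes such as LOX9, AOS1 and AOS2. No other scaling was applied. Correlations used Python 3.11.15 with exact permutation. All 7 members are named, with the 2 loci most like their mean profile. The members and lists were chosen with earlier results of these data known. Alternatives changed the pseudocount (0.1), the filter (none, or 5 FPKM), the scaling (quantile, median-of-ratios, equal totals), the trend (none) and the moderation (robust), added a replicate block, or left out each library. No sequences were used.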

Additional observations from a re-analysis of the deposited data

How the results depend on the processing

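No tested member was called under any of the 15 alternatives, and none of the 20 other jasmonate loci was. With the filter at 5 FPKM, only 14 of these 20 loci were tested. JAR1 stayed lower in DGP1-OE1 in all 15 alternatives. Under the 9 that leave no library out, AOC, OPR7 and MYC2 also kept their direction. Leaving out each library in turn gave log2 differences of -0.28 to 0.17 for AOC, -0.27 to 0.03 for OPR7, -0.57 to -0.22 for JAR1 and -0.12 to 0.38 for MYC2. The sign turned for AOC without DGP1-OE1 replicate 2 (0.17) and without ZH11 replicate 1 (0.02), for OPR7 without DGP1-OE1 replicate 3 (0.031), and for MYC2 without DGP1-OE1 replicate 2 (-0.12) and without ZH11 replicate 1 (-0.05). The untested differences ran from -0.51 to 0.03 for LOX9, -0.74 to -0.35 for AOS1 and -0.26 to 0.40 for AOS2. Over all genes, leaving out a library gave 16 to 39 higher and 9 to 42 lower calls. Lower calls numbered 14 if the intensity trend was dropped and 21 at the pseudocount 0.1. With the replicate number as a block there were 130 higher and 139 lower calls, and JAR1 had an adjusted p of 0.529. Deviations of same-numbered libraries correlated at 0.0165, 0.375 and 0.137. DGP1-OE1 replicates 2 and 3 each correlated best with the ZH11 library of the same number, and DGP1-OE1 replicate 1 with ZH11 replicate 3 (0.206). These values do not settle whether equal numbers share a batch, and the labels do not pair them. The cause of these changes was not tested. Unknown depth limits LOX9, AOS1 and AOS2 most.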
